A study of Mus musculus with 6 samples.

Results

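Malat1, Neat1, Gas5, Snhg1 and Snhg8 are 5 mouse genes that make long RNAs without a protein product. They were chosen by gene symbol, as nuclear or polyadenylated noncoding RNAs, from a count table of 15565 genes. All 5 were among the 13288 genes with enough counts to be tested. The study compared TERT(High) with TERT(Low) hepatocytes, cells sorted from the liver according to the expression of Tert, which encodes the catalytic subunit of telomerase. Bulk RNA sequencing was carried out on 6 libraries, 3 in each group, and each of 3 mice gave 1 library to each group. All mice were C57BL/6, were 2 months old and carried the same genotype, Tert(CreERT2/+); R26(LSL-Tomato/+). In that genotype 1 Tert allele carries an inducible Cre recombinase and the Tomato reporter at the Rosa26 locus depends on Cre, in both groups alike. The labels give no treatment. Hepatocytes were freed by collagenase perfusion and sorted, and libraries were made with a stranded kit that selects polyadenylated RNA. In such bulk samples, fewer cells with an RNA and less of that RNA per cell cannot be told apart.

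Malat1 is a very abundant nuclear RNA that gathers in nuclear speckles, the bodies that store splicing factors. Neat1 is the scaffold of paraspeckles, and its long form is the one that these bodies require. The ends of Malat1 and of long Neat1 are not made by ordinary polyadenylation: RNase P cuts upstream of a tRNA-like structure, and a U-rich and A-rich triple helix protects the new end. Gas5, Snhg1 and Snhg8 are snoRNA hosts, genes whose introns carry small nucleolar RNAs, which guide chemical modification of ribosomal and other RNAs. Their spliced exons are exported and many are degraded by nonsense-mediated decay when they are translated, and several host genes begin transcription at a pyrimidine tract, as ribosomal protein genes do.

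Malat1 and Neat1 lie next to each other on mouse chromosome 19, both on the minus strand. On GRCm38, Malat1 spans chr19:5795690-5802672 as a single exon of 6983 nt. RefSeq places Neat1 at chr19:5824708-5845480, and GENCODE gives it a long transcript of 20771 nt and a short one of 3004 nt. The genes are 22036 bp apart. Their shared feature is the end element, which is shown because it distinguishes these RNAs from ordinary messenger RNAs and because the kit selected polyadenylated RNA. The stretches below run 5′ to 3′ on the minus strand, from chr19:5795982-5796075 for Malat1 and chr19:5824708-5824807 for Neat1. Capitals mark 3 motifs searched on the transcript strand: the U-rich TTTCTTTT, the A-rich tract AAAAAGCAAAA, which is the last 11 bases of long Neat1, and between them the U-rich TTTTGCTTTT, the reverse complement of the last 10.
Malat1: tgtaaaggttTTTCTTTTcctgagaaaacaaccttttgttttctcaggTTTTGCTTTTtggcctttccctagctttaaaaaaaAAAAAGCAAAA
Neat1: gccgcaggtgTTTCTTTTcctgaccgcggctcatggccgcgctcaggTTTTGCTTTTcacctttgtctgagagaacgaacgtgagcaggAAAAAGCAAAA
Of 141767 GENCODE transcripts, 2 held the 3 motifs in this order within 150 bases of the A-rich tract, 1 from each of these genes. The annotated Malat1 transcript runs on for 292 bases after the tract, whereas the long Neat1 transcript ends at it.

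The 3 host genes are short, spliced loci. Gas5 is at chr1:161034601-161038539 on the plus strand, with 8 snoRNAs annotated in its introns in RefSeq. Snhg1 is at chr19:8723487-8726326 on the plus strand and also holds 8. Snhg8, at chr3:123507552-123508336 on the minus strand, holds 1, Snora24. The longest basic transcripts of Gas5, Snhg1 and Snhg8 in GENCODE measure 665, 709 and 528 nt. A guide of each main class is printed because the snoRNA is the product these introns are known for. Snord47 from Gas5 (chr1:161038082-161038158, plus strand) is of the box C/D class, whose members guide methylation, and capitals mark TGATGA within its first 20 bases and CTGA within its last 15. Snora24 from Snhg8 (chr3:123507937-123508066, minus strand) is of the box H/ACA class, whose members guide pseudouridylation, and capitals mark ACA 3 bases before its end.
Snord47: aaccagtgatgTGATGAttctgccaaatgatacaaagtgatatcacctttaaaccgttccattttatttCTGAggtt
Snora24: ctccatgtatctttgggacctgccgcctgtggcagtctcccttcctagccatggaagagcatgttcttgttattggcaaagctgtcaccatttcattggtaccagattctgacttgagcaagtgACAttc
Of 1507 annotated mouse snoRNAs, 20.2% carried the first arrangement and 18.3% the second. The snoRNAs themselves are too short for this kind of library and were not analysed here; the counts below are those of the host RNAs.

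Start windows are shown because ribosomal protein genes and several hosts share the pyrimidine start. They run from 40 bases before the annotated start to 20 bases from it, are RefSeq sequence on GRCm38.p6 and were available for 4 of the 5 genes, with 2 starts for Gas5. Capitals mark a C followed by at least 4 pyrimidines beginning exactly at the start, and TATAAA in the 40 bases before it, both searched on the strand of the gene. The windows lie at chr1:161034561-161034620 and chr1:161035126-161035185 (Gas5), chr3:123508317-123508376 (Snhg8), chr19:5802653-5802712 (Malat1) and chr19:8723447-8723506 (Snhg1).
Gas5 first start: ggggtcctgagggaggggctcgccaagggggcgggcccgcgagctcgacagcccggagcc
Gas5 second start: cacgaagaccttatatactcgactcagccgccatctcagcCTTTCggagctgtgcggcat
Snhg8: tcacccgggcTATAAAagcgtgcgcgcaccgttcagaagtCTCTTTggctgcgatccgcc
Malat1: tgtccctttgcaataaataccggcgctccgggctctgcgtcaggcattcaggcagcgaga
Snhg1: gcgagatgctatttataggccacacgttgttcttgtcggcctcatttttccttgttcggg
The pyrimidine start was found at the second Gas5 start and at Snhg8, and in 2.51% of 32851 promoter windows. TATAAA was found at Snhg8 and in 2.31% of windows. No match says only that those letters were not in that window.

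The libraries held 53585174 to 76164917 counts each. Tert itself had 38, 33 and 30 counts in the TERT(High) libraries of mice 1 to 3 and 21, 21 and 12 in the TERT(Low) libraries, so the groups did not overlap. Hepatocyte markers summed to 113000 to 126000 CPM (counts relative to library size, scaled by the trimmed mean of M values) in TERT(High) and 103000 to 125000 in TERT(Low), and of 8 tested 1 was called lower and 0 higher, with a median log2 fold change of −0.43. Of 13288 genes, edgeR's quasi-likelihood test called 588 higher and 493 lower in TERT(High) at a Benjamini-Hochberg adjusted p under 0.05, or 8.14% in either direction. These calls needed almost every library: when 1 library other than TERT(High) of mouse 1, or any mouse, was left out, edgeR called 0 genes, with 1884 to 3436 at an unadjusted p under 0.05. The TERT(High) library of mouse 1 stood apart in stellate cell or fibroblast markers (247 CPM summed, against 4.45 to 13.5 in the other 5) and in erythroid markers (206 CPM, against 17.5 to 61). TERT(High) of mouse 3 and TERT(Low) of mice 1 and 3 stood apart in another way, described below with the other noncoding RNAs, and held 8.12 to 18.9 CPM of Camk2a, the gene of a neuronal kinase subunit, against 0 to 0.294 CPM in the other 3.

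None of the 5 RNAs passed the edgeR test (0 of 5, against 8.14% of all genes), and 2 had an unadjusted p under 0.05, as did 28.7% of all genes. Malat1 had higher values in all TERT(High) libraries and Snhg8 lower values, and for these 2 RNAs the groups did not overlap, which held for 33.4% of all genes. Neat1, Gas5 and Snhg1 had overlapping groups. By DESeq2, 2 of the 5 passed (Malat1 higher and Snhg8 lower), against 21.2% of all genes, 11.5% higher and 9.77% lower. With the mouse as a block in edgeR, 1 passed (Malat1), against 9.72% of all genes, 5.43% higher and 4.3% lower. These shares for the 5 RNAs rest on very few genes.

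**Figure D1:**
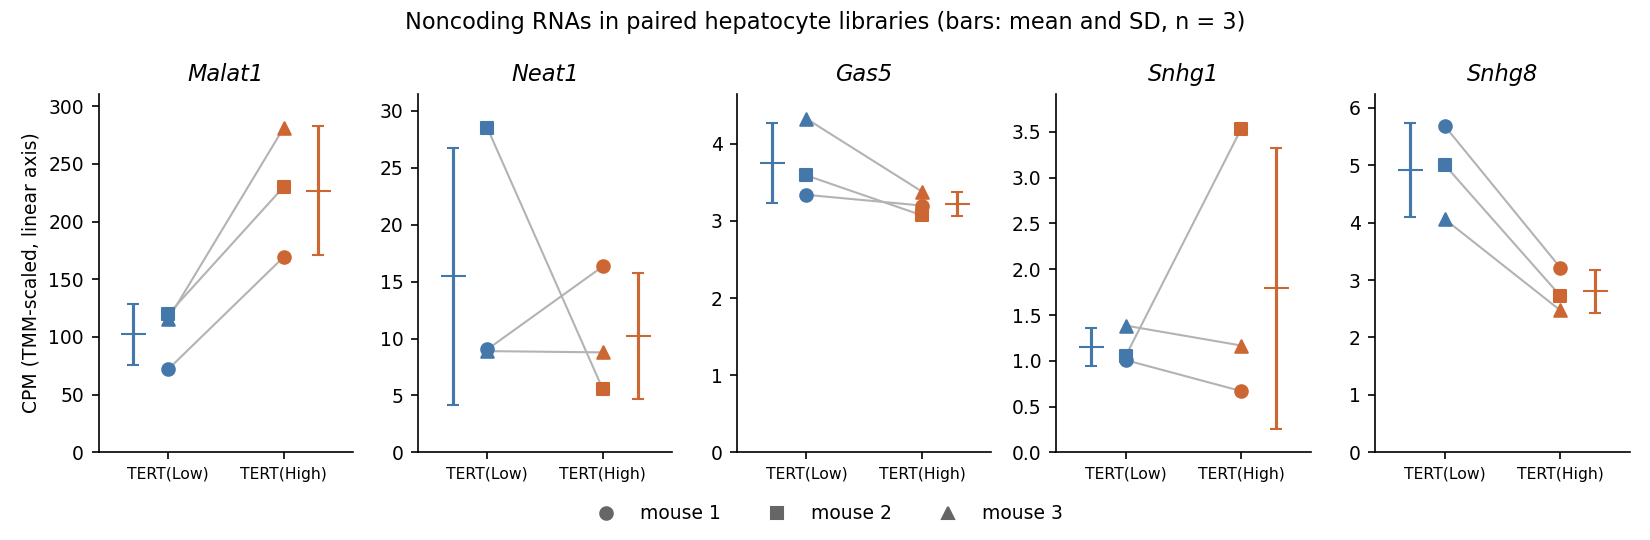
Level of each RNA (CPM, linear axis from 0) in TERT(Low) and TERT(High) libraries; marker shape gives the mouse, grey lines join libraries of 1 mouse, and the cross bars give the mean and SD of 3 libraries. All 3 lines go up for Malat1 (from 71.9 to 120 CPM up to 169 to 281 CPM) and down for Snhg8, while the lines for Neat1 and Snhg1 cross.

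Malat1 was the most abundant of the 5 and ranked 3 of 453 tested long noncoding RNA genes. Its level was 169, 230 and 281 CPM in TERT(High) of mice 1, 2 and 3, from 10365, 13925 and 16382 counts. In TERT(Low) it was 71.9, 120 and 115 CPM, from 5275, 6261 and 6072 counts. Every TERT(High) library lay above every TERT(Low) library, and within each mouse the TERT(High) library held 2.35, 1.92 and 2.44 times as much. The means were 227 ± 56.0 CPM and 102 ± 26.4 CPM (SD, n = 3 in each group). TERT(High) exceeded TERT(Low) by 1.15 (SE 0.27) in log2 units, a ratio of 2.22, with an adjusted p of 0.0508 in edgeR, just outside the threshold of 0.05. With the mouse as a block in edgeR, Malat1 rose by 1.16 on the log2 scale (SE 0.13, adjusted p = 0.0407). DESeq2 gave 1.12 (SE 0.28, adjusted p = 0.000891). Without TERT(High) of mouse 1, the library with stellate and erythroid markers, edgeR gave 1.28 (adjusted p = 0.0354). Of 9 fits that left out a library or a mouse, Malat1 passed only in that one. In the others its edgeR adjusted p was 0.075 to 0.309. The Malat1 estimate was 0.74 (adjusted p = 0.654) from the 3 libraries with little Camk2a RNA, which leave 2 TERT(High) libraries and 1 TERT(Low) library. As a share of all counts, Malat1 made up 0.0238% in TERT(High) and 0.00969% in TERT(Low).

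Neat1, the paraspeckle scaffold, was far lower than its neighbour and differed most between the libraries of mouse 2. Its level was 16.3, 5.55 and 8.79 CPM in TERT(High) of mice 1, 2 and 3 (1001, 336 and 512 counts) and 9.05, 28.5 and 8.90 CPM in TERT(Low) (664, 1494 and 469 counts). The highest and the lowest of the 6 values both came from mouse 2, and the groups overlapped. Within mice, the ratio of TERT(High) to TERT(Low) was 1.81, 0.195 and 0.987. The means were 10.2 ± 5.54 and 15.5 ± 11.3 CPM (SD, n = 3), and the log2 difference of −0.60 (SE 0.59) did not pass the edgeR test (adjusted p = 0.556). Without TERT(Low) of mouse 2 the sign turned, to 0.20 (adjusted p = 0.818), so the direction rested on that library. The count table does not separate the short and the long transcript of Neat1, so the form that paraspeckles require was not measured on its own.

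The relation of the neighbours can also be read without any scaling between libraries. Counts of Neat1 per count of Malat1 were 0.0966, 0.0241 and 0.0313 in TERT(High) and 0.126, 0.239 and 0.0772 in TERT(Low). The ratio was lower in TERT(High) within each mouse, as was its median, but the ranges overlapped. Malat1, the divisor, was itself higher in TERT(High) of each mouse. Per kilobase of the chosen transcript, mean Malat1 was 32.5 CPM for TERT(High) libraries and 14.6 CPM for TERT(Low), against 0.492 and 0.746 CPM for the long Neat1 transcript. All Neat1 counts were divided by that long length, although they do not separate the forms. With the length of the short transcript the Neat1 values would be higher. The flanking gene Frmd8, 4224 bp from Neat1, stood at −0.46 on the log2 scale and did not pass the test (edgeR adjusted p = 0.230).

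Among the hosts, Snhg8 had the clearest separation of the groups. Its level was 3.22, 2.73 and 2.47 CPM in TERT(High) of mice 1, 2 and 3 (197, 165 and 144 counts) and 5.68, 5.0 and 4.06 CPM in TERT(Low) (417, 262 and 214 counts). All 3 TERT(High) libraries lay below all 3 TERT(Low) libraries, with ratios within mice of 0.566, 0.545 and 0.609. The means were 2.80 ± 0.378 and 4.91 ± 0.814 CPM (SD, n = 3). The log2 fold change was −0.81 (SE 0.21), a level 1.75 times lower in TERT(High), with an edgeR adjusted p of 0.0636. The mouse as a block left it outside the threshold (log2 −0.81, SE 0.17, adjusted p = 0.0521), and DESeq2 placed it inside (−0.83, SE 0.28, adjusted p = 0.0152). Without TERT(High) of mouse 1 the edgeR estimate was −0.97 (adjusted p = 0.0505), and from the 3 libraries with little Camk2a RNA it was −0.75 (adjusted p = 0.685).

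Gas5, whose exons were first known as a transcript of growth-arrested cells, varied least. Its level was 3.20, 3.07 and 3.38 CPM in TERT(High) (196, 186 and 197 counts) and 3.34, 3.59 and 4.33 CPM in TERT(Low) (245, 188 and 228 counts). The TERT(High) value was the lower one in each mouse, by ratios of 0.958, 0.856 and 0.782, although the groups overlapped across mice. The means of 3.22 ± 0.155 and 3.75 ± 0.513 CPM (SD, n = 3) gave a log2 difference of −0.22 (SE 0.19), which did not pass the edgeR test (adjusted p = 0.503). Zbtb37, a zinc finger gene, overlaps Gas5 by 428 bp on the opposite strand. Its level was low beside that of Gas5, 0.951 ± 0.134 CPM against 0.706 ± 0.0404 CPM in TERT(Low), with a log2 difference of 0.43 (edgeR adjusted p = 0.440). The strand setting of the authors' counting is not given in the sources used here, so how reads in the shared stretch were assigned is unknown.

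Snhg1 was the least abundant of the 5 and depended on a single library. In TERT(High) of mice 1, 2 and 3 its counts were 41, 214 and 68, or 0.669, 3.53 and 1.17 CPM. TERT(Low) gave counts of 74, 55 and 73, or 1.01, 1.05 and 1.39 CPM. TERT(High) of mouse 2 stood far above the other 5 libraries, among which TERT(High) of mouse 1 was the lowest. The means were 1.79 ± 1.53 and 1.15 ± 0.206 CPM (SD, n = 3), and the log2 difference of 0.64 (SE 0.61) did not pass the edgeR test (adjusted p = 0.546). Without TERT(High) of mouse 2 the sign turned, to −0.36 (adjusted p = 0.687). Slc3a2, which encodes an amino acid transporter subunit and begins 106 bp away on the opposite strand, differed by −0.08 on the log2 scale (edgeR adjusted p = 0.769).

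The 3 hosts did not keep a fixed proportion to each other. Counts of Gas5 per count of Snhg1 were 4.78, 0.869 and 2.90 in TERT(High) and 3.31, 3.42 and 3.12 in TERT(Low), with the low value again in TERT(High) of mouse 2. Counts of Snhg8 per count of Gas5 were 1.01, 0.887 and 0.731 in TERT(High) and 1.70, 1.39 and 0.939 in TERT(Low). That ratio was lower in TERT(High) within each mouse, with overlapping ranges. Counts of Snhg8 per count of Snhg1 were 4.8, 0.771 and 2.12 in TERT(High) and 5.64, 4.76 and 2.93 in TERT(Low), also overlapping. Malat1 per count of Snhg8 was 52.6, 84.4 and 114 in TERT(High) and 12.6, 23.9 and 28.4 in TERT(Low). Neither this ratio nor Snhg8 over Gas5 was planned. Malat1 and Snhg8 already separated the groups, in opposite directions, so the separation of their ratio follows from theirs. Across the 6 libraries the Pearson r of log2 CPM between Malat1 and Snhg8 was −0.97, the largest in size among the 5 RNAs. It is a description that includes the difference between the groups. Per kilobase, Snhg8 stood at 5.31 CPM for TERT(High) libraries and 9.31 CPM for TERT(Low), Gas5 at 4.84 and 5.64 CPM, and Snhg1 at 2.52 and 1.62 CPM.

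The genes of at least 5 CPM whose log2 CPM followed each RNA most closely over the 6 libraries were listed as a further description. For Malat1 they were Taf2 (r = 0.998), Tcf12 (0.996) and Ppp1r7 (0.996). For Snhg8 they were Trp53rka (0.997), Snrnp40 (0.995) and Map1lc3a (0.995), and for Gas5 they were Cox7b (0.991), Mrps22 (0.986) and Ndufaf2 (0.985). Neat1 and Snhg1 had looser partners, Cnot9 (0.949), Mal2 (0.944) and Eif4e (0.942) for Neat1 and Polr3c (0.964), Aldh7a1 (0.963) and Dvl1 (0.956) for Snhg1. These are the highest among 7438 or 7439 genes compared per RNA, and the points share their libraries.

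Transcript length moved with the fold changes of the whole table, so the 5 values were set against genes of like length. In the longest 10% of genes, which holds Malat1 and Neat1 (1319 genes, 6357 to 123179 nt), the median log2 fold change was 0.80 (quartiles 0.07 and 1.31), and edgeR called 18.7% higher and 0.152% lower. In the shortest 10%, which holds Gas5, Snhg1 and Snhg8 (1320 genes, 53 to 1119 nt), the median was −0.53 (quartiles −0.74 and −0.26), and 0% were called higher and 20.2% lower. Malat1 at 1.15 lay within the quartiles of its class, and Neat1 at −0.60 lay below the lower quartile. Snhg8 at −0.81 lay below the lower quartile of the short class, Gas5 at −0.22 just above the upper one, and Snhg1 at 0.64 well above it. If Neat1 is instead set beside genes of 2500 to 3500 nt, the size of its short transcript, the median was 0.06 (quartiles −0.26 and 0.40), and Neat1 was again below the lower quartile.

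**Figure D2:**
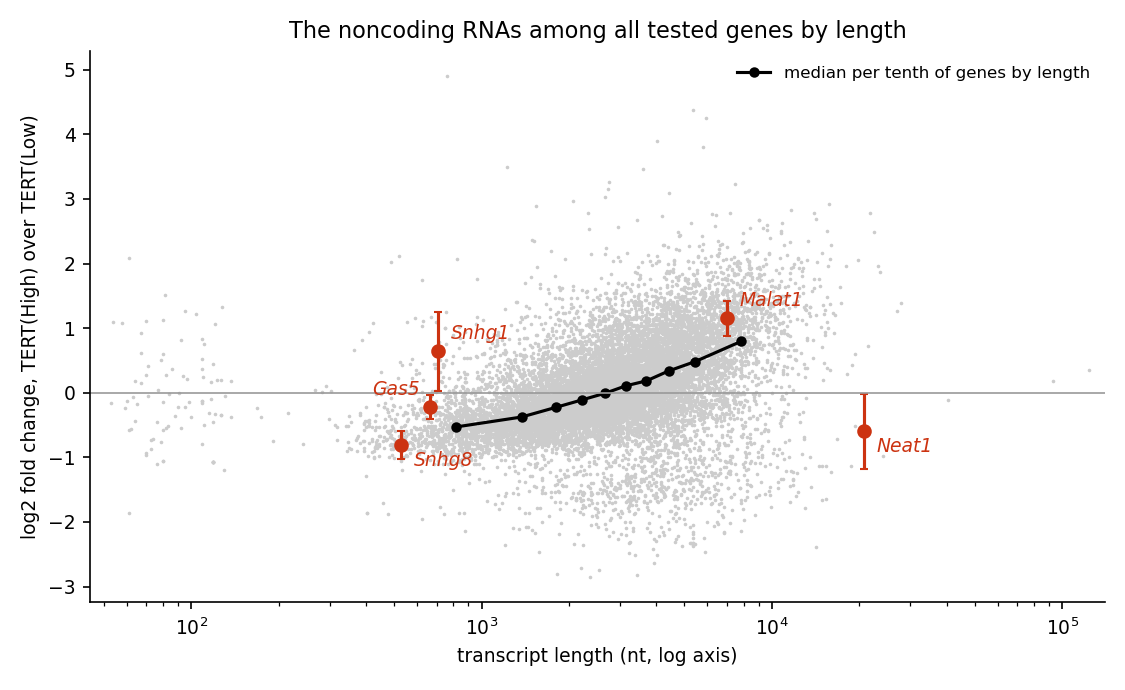
Log2 fold change of TERT(High) over TERT(Low) against transcript length (nt, log axis); grey points are tested genes, black points the median of each 10% of genes by length, and red points the 5 noncoding RNAs with SE. The median climbs from −0.53 at the short end to 0.80 at the long end. Malat1 lies within the quartiles of its length class. Neat1, drawn at its long transcript, and Snhg8 lie below those of theirs, and Gas5 and Snhg1 above.

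Removing the trends of length and GC content within each library reduced the Malat1 estimate to 0.41 (SE 0.35, edgeR adjusted p = 0.635) and that of Snhg8 to −0.46 (adjusted p = 0.485). Under the same correction Neat1, taken at the length of its long transcript, was −1.44 (adjusted p = 0.523). Gas5 turned to 0.28 (adjusted p = 0.579) and Snhg1 was 1.01 (adjusted p = 0.559). With the mouse as a block added, Malat1 was 0.48 (adjusted p = 0.204) and Snhg8 −0.43 (adjusted p = 0.282). No gene of 13184 passed in either corrected edgeR fit, with 1778 genes at an unadjusted p under 0.05 in the first and 2853 in the second. The Neat1 value depended on the transcript chosen. With its short transcript in the first fit, an unplanned alternative, Neat1 was −0.60 (SE 0.62, edgeR adjusted p = 0.689). The part of length in the uncorrected values of these RNAs was not tested beyond this correction.

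**Figure D3:**
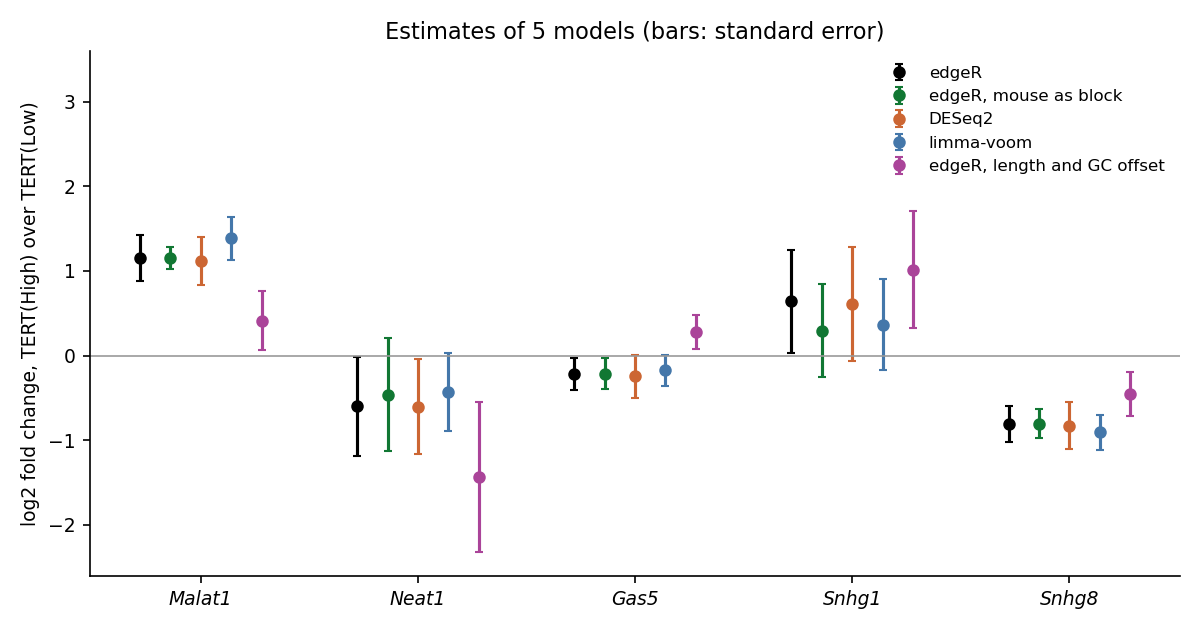
Log2 fold change and SE of each RNA under 5 models, with TERT(High) over TERT(Low) on the linear vertical axis. For Malat1, 4 of the 5 estimates lie between 1.12 and 1.39 and the length and GC offset gives 0.41; Gas5 is the only RNA whose sign turns among these 5 models.

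Genes of proteins that meet these RNAs in the nucleus included several whose RNA differed. Values here and for the lists below are RNA levels, since no protein was measured. Of 30 paraspeckle protein genes tested, edgeR called 4 higher and 0 lower in TERT(High). The median log2 fold change was 0.25, beside −0.01 over all tested genes (4.43% higher, 3.71% lower). Taf15, which encodes an RNA-binding protein, rose from 3.78 ± 0.791 to 11.8 ± 1.89 CPM (log2 1.65, SE 0.23, adjusted p = 0.0277). Hnrnpul1 rose by 1.11 (adjusted p = 0.0453) and Sfpq by 0.96 (adjusted p = 0.0364) on the log2 scale. Sfpq and its partner Nono are core proteins that paraspeckles require, yet Nono differed by only 0.26 (adjusted p = 0.320). Of 27 nuclear speckle protein genes, 3 rose and 0 fell, with a median of 0.65. They were Thrap3 (log2 1.41, adjusted p = 0.0498), Sart1 (1.26, adjusted p = 0.0452) and Sf3b1, a core component of the U2 particle of the spliceosome, which rose from 21.4 ± 1.88 to 42.8 ± 4.43 CPM (1.0, adjusted p = 0.0277). With the mouse as a block, 5 speckle proteins passed, but not Thrap3 (adjusted p = 0.0530), and without TERT(High) of mouse 1 edgeR called 9 higher and 1 lower. Library totals alone gave 5 speckle proteins higher, and no filter on low counts gave 1. DESeq2 called 9 paraspeckle genes higher and 1 lower, and 12 speckle genes higher.

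The factors that act on the ends of Malat1 and Neat1 or on RNA decay are read against the share of all tested genes called, 4.43% higher and 3.71% lower. Of 13 end processing factors, 0 rose and 1 fell, Pop5, a subunit of RNase P and RNase MRP, from 42.7 ± 1.42 to 26.1 ± 0.480 CPM (log2 −0.71, SE 0.12, edgeR adjusted p = 0.0296). The median of that list was −0.18, and DESeq2 called 1 higher and 3 lower. Of 18 nuclear decay factors, 2 rose and 0 fell around a median of −0.16: Zfc3h1 (1.32, adjusted p = 0.0321), which links targets to the nuclear exosome, and Dis3 (1.04, adjusted p = 0.0387), a catalytic subunit of the exosome. DESeq2 called 3 nuclear decay factors higher and 3 lower. A strict filter on low counts (5 CPM in 3 libraries) left 0 calls in edgeR, but it took Zfc3h1 and Dis3 out of the test. Their means were 3.29 and 4.01 CPM in TERT(High) and 1.31 and 1.95 CPM in TERT(Low). Of 22 nonsense-mediated decay factors, the pathway known to degrade spliced Gas5, 1 rose and 0 fell, and the median was 0.53. That gene was Xrn1, a cytoplasmic 5′ to 3′ exonuclease, which rose from 1.69 ± 0.186 to 5.73 ± 0.280 CPM (1.77, adjusted p = 0.0241). With the mouse as a block, 3 decay factors of this pathway passed, and without TERT(High) of mouse 1 edgeR called 4 higher and 1 lower. DESeq2 called 7 of them higher and 2 lower.

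The RNAs of genes for proteins that package snoRNAs went in both directions. Of 20 snoRNP and assembly genes, 2 rose and 4 fell in edgeR (all tested genes, 4.43% and 3.71%), with a median log2 fold change of 0.04. Nolc1, a nucleolar chaperone of snoRNPs, rose by 1.68 (adjusted p = 0.0417), and Tgs1, which modifies the caps of small RNAs, rose by 1.25 (adjusted p = 0.0348). Snu13, which binds box C/D snoRNAs, fell by 0.87 (adjusted p = 0.0479). The other 3 that fell were Nhp2 and Nop10, both core proteins of box H/ACA particles, by 0.80 and 0.74, and Pih1d1, an assembly factor, by 0.61. With the mouse as a block, 1 rose and 3 fell, and Nolc1 no longer passed (adjusted p = 0.0578). Without TERT(High) of mouse 1, likewise, 1 rose and 3 fell. With library totals as the only scaling 2 rose and 0 fell, and without a filter on low counts 2 rose and 2 fell.

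**Figure D4:**
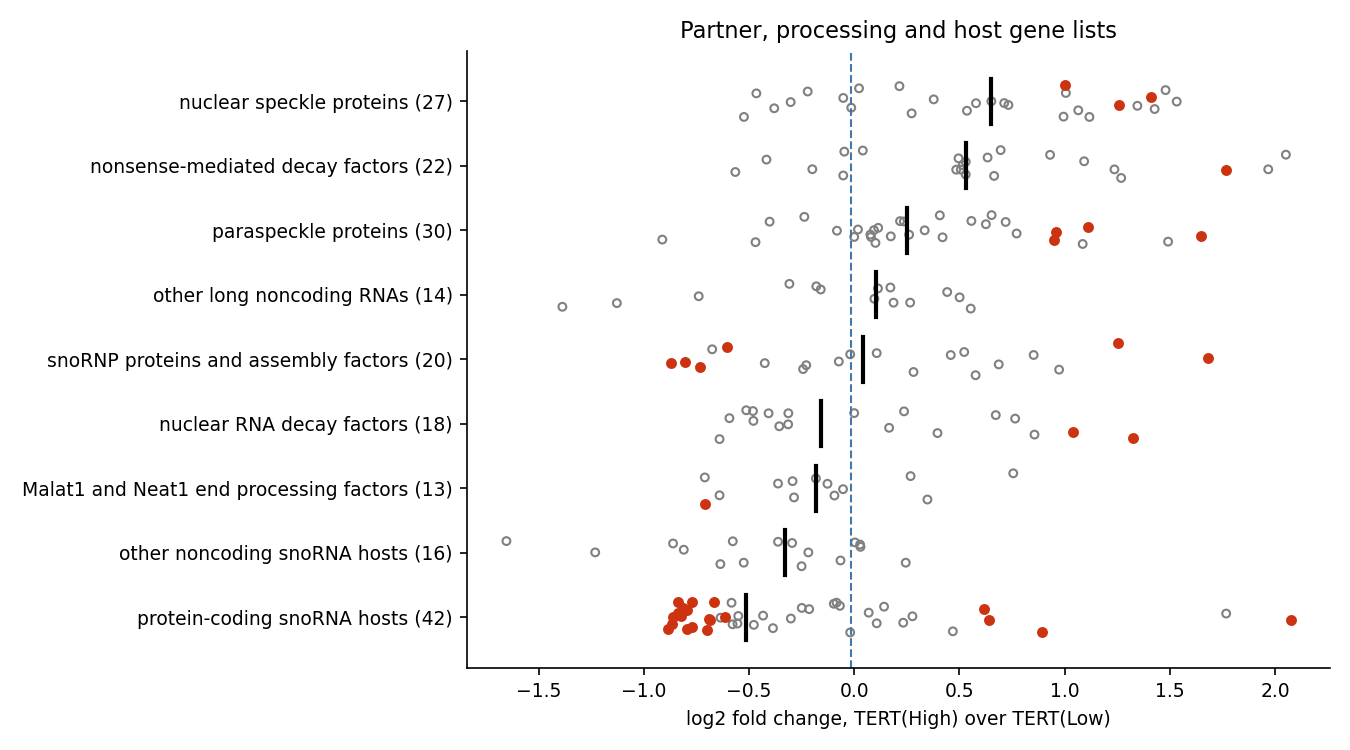
Log2 fold change of each tested gene in 9 lists (number of tested genes in brackets); filled red points passed the edgeR test, black bars mark list medians and the dashed line marks the median of all tested genes, −0.01. Medians run from −0.51 for protein-coding snoRNA hosts to 0.65 for nuclear speckle proteins.

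Other noncoding snoRNA hosts gave no call in edgeR. Of 23 such genes listed, 20 were in the table and 16 were tested. In either direction edgeR called 0 of the 16, with 0 at an unadjusted p under 0.05 and 0 called by DESeq2. Over all tested genes these shares were 8.14%, 28.7% and 21.2%. With the mouse as a block, DESeq2 called 1 lower. These 16 genes had a median level of 1.07 CPM, against 6.92 CPM over all tested genes. Their median log2 fold change was −0.33, and 12 of 16 values were negative. Snhg6 and 1110038B12Rik, the most abundant, stood at −0.36 (adjusted p = 0.315) and −0.30 (adjusted p = 0.356). Snhg3 had the same estimate as Snhg8, −0.81, but a larger SE of 0.39 (adjusted p = 0.226). Zfas1 and Snhg12, picked out after their values were seen, resembled Snhg1 in one respect, with the highest count in TERT(High) of mouse 2: Zfas1 had 48, 236 and 118 counts in TERT(High) and 106, 69 and 153 in TERT(Low), and Snhg12 had 42, 88 and 35 against 77, 38 and 48. When every tested noncoding gene annotated with a snoRNA was added, 26 could be set side by side, 18 below and 8 above 0, and Snhg8 alone had an unadjusted p under 0.05.

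**Figure D5:**
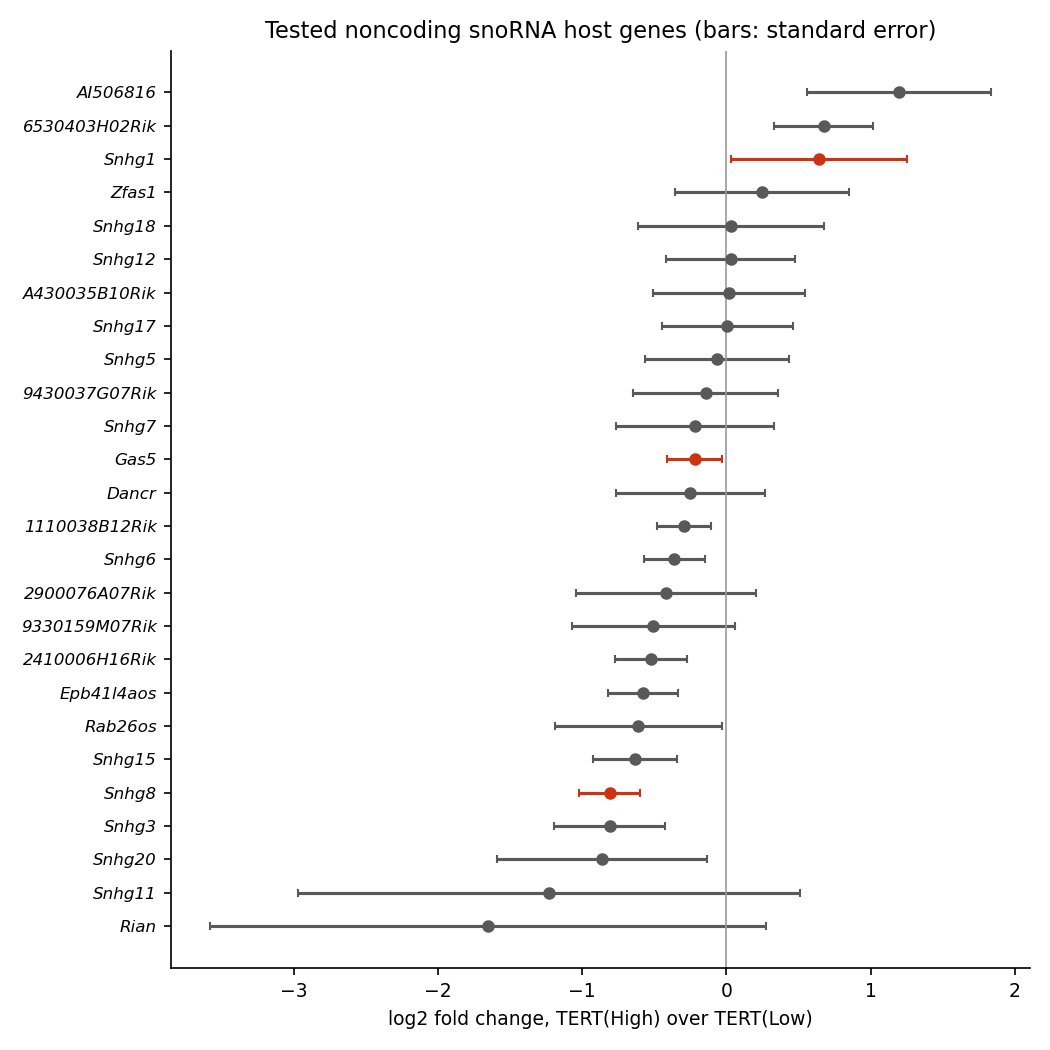
Log2 fold change and SE of 26 tested noncoding snoRNA hosts, ordered by value, with Gas5, Snhg1 and Snhg8 in red. Snhg8 has a narrow bar well below 0, whereas Snhg11 and Rian, lower still, have the widest bars.

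Hosts that also encode proteins held more calls, although their difference from the noncoding hosts was not tested. The lists also differed in abundance, with a median level of 251 CPM for the protein-coding and 1.07 CPM for the other noncoding hosts. Of 42 protein-coding hosts in a chosen list, edgeR called 4 higher and 16 lower, and the median was −0.51. These were 9.52% and 38.1% of the list, against 4.43% and 3.71% of all tested genes. With library totals as the only scaling the counts were 3 higher and 0 lower, and without a filter on low counts 2 higher and 10 lower. The 23 of the list that encode ribosomal proteins supplied 14 of the 16 lower calls and no higher one. The skew to lower calls was not seen over every tested protein-coding gene annotated with a snoRNA. Of those 228 genes, edgeR called 24 higher (10.5%) and 21 lower (9.21%), with a median of 0.10. Rack1, a ribosome-associated scaffold protein, fell from 560 ± 32.6 to 303 ± 17.3 CPM (log2 −0.89, SE 0.14, adjusted p = 0.0277). In the opposite direction, Ncl, which encodes nucleolin, rose from 12.7 ± 1.17 to 53.6 ± 13.3 CPM (2.07, SE 0.22, adjusted p = 0.0241), and Wdr43, a factor of ribosomal RNA processing, rose by 0.89 (adjusted p = 0.0277). The median transcript of the 42 listed hosts was 1492.5 nt long, against 2891.5 nt over all tested genes and 3373 nt for nuclear speckle proteins. With the length and GC offset, with or without the mouse as a block, edgeR called 0 of these hosts in either direction, as it did for all genes. Ribosomal protein genes have near-identical processed copies between which reads may be split. Genes that begin with C and 4 pyrimidines, like Snhg8, numbered 317 among those tested, of which 10 rose (3.15%) and 21 fell (6.62%), with a median of −0.08. Of the 10187 genes with another start, 458 rose (4.5%) and 380 fell (3.73%), with a median of −0.01; this difference was not tested.

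Of 453 long noncoding RNA genes tested, 2 rose (0.442%) and 5 fell (1.1%), against 4.43% and 3.71% of all tested genes, with a median log2 fold change of −0.11. Their median level was 0.906 CPM, against 6.92 CPM over all tested genes. Of 14 other known long noncoding RNAs, edgeR called 0, with 2 at an unadjusted p under 0.05 and 1 called by DESeq2. 2900097C17Rik, the most abundant of them, stood at 0.50 (edgeR adjusted p = 0.163). Tug1 was 9.93 ± 1.02 CPM in TERT(High), against 6.76 ± 0.527 CPM for TERT(Low) (log2 0.55, SE 0.16, adjusted p = 0.0773 in edgeR and 0.0375 in DESeq2). Another 4 noncoding RNAs varied by library and not by group, a pattern noticed in their values. Meg3 had 39, 7 and 714 counts in TERT(High) of mice 1, 2 and 3 and 1373, 5 and 503 in TERT(Low). The snoRNA host Snhg11 had 14, 3 and 391 counts in TERT(High) and 757, 7 and 311 in TERT(Low). Rian and Miat had 70 and 56 counts in TERT(High) of mouse 3, 182 and 130 in TERT(Low) of mouse 1, 79 and 41 in TERT(Low) of mouse 3, and 0 to 4 elsewhere. Genes of neurons and myelin were high in the same 3 libraries: Snap25, a synaptic protein gene, had 7.76 CPM in TERT(High) of mouse 3, 17.6 CPM in TERT(Low) of mouse 1 and 7.78 CPM in TERT(Low) of mouse 3, against 0.0382 to 0.261 CPM in the others. In counts not scaled for library size, Gas5 had its 3 highest values in those libraries (245, 228 and 197, against 186 to 196 elsewhere). In CPM, Malat1, Neat1, Gas5, Snhg1 and Snhg8 did not have their 3 highest or 3 lowest values in those libraries. The part of this RNA in their levels was not tested apart from the estimates without these libraries given above for Malat1 and Snhg8, and those of −1.38 for Neat1, −0.19 for Gas5 and 1.0 for Snhg1 on the log2 scale (edgeR adjusted p = 0.648, 0.913 and 0.771).

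Markers of other liver cells were compared as summed levels. The 9 endothelial markers summed to 33.4 to 61.4 CPM in TERT(High), against 24.5 to 27.9 CPM for TERT(Low). Of the 9, 2 were called higher, against 4.43% of all tested genes. The ranges of the sum did not overlap, which held for 33.4% of all tested genes taken singly. Macrophage markers summed to 20.5 to 114 CPM in TERT(High), against 17.9 to 53.8 CPM for TERT(Low), and neutrophil markers to 4.96 to 11.4 and 4.80 to 11.5 CPM, with 0 of 11 and 0 of 6 tested markers called. Cholangiocyte markers summed to 2.05 to 11.7 and 2.13 to 3.26 CPM, T or NK cell markers to 0.751 to 1.63 and 0.613 to 1.55 CPM, and B cell markers to at most 0.412 CPM. Sums can follow a few abundant genes, and the medians leaned to TERT(High). Median log2 fold changes of the tested markers were 1.14 (endothelial), 0.965 (macrophage), 2.07 (neutrophil) and 0.617 (cholangiocyte). They were 0.745 (stellate cell or fibroblast), 1.1 (erythroid) and 0.08 (T or NK cell), and no B cell marker was tested. The part of these other cells in the levels of the 5 RNAs was not tested.

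The authors' deposited table of their own DESeq2 comparison puts Malat1 at 1.05 on the log2 scale (SE 0.17, adjusted p = 2.34e-08) and Snhg8 at −0.85 (SE 0.20, adjusted p = 0.000273). Of 10858 genes in the authors' deposited table, 29.2% pass an adjusted p under 0.05, and 2 of the 5 RNAs do. The authors' deposited table lists Neat1 at −0.42 (adjusted p = 0.435), Gas5 at −0.22 (adjusted p = 0.474) and Snhg1 at 0.30 (adjusted p = 0.632). The mean level in the authors' deposited table and the mean normalised count computed from the count table differed for 2 of the hosts. For Gas5 they were 1929 and 207.3, a ratio of 9.30 in the authors' deposited table over the counts, and for Snhg8 665.3 and 229.9, a ratio of 2.89. Malat1, Neat1 and Snhg1 had ratios of 1.05, 1.07 and 1.04 between the authors' deposited table and the counts. Over 10851 genes in both, the median ratio to the authors' deposited table was 1.03, and 319 genes (2.94%) exceeded 1.5. Of 221 snoRNA hosts in both, 3 did so: Gas5, Snhg8 and 6530403H02Rik. The cause of this difference was not tested, and the levels of Gas5 and Snhg8 given here are those of the count table alone.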

How the data were processed

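Reads were trimmed with Trim Galore 0.4.0 and aligned to mm10 with TopHat2 2.0.13, per the submitters' processing notes; the counting tool is not given in the sources used here. The authors deposited whole-number counts per gene, not normalised. The authors' deposited DESeq2 table, per the file headers, gives a mean normalised signal, a log2 fold change with its SE, the linear fold, a test score, and p-values. From the counts, edgeR 4.0.16 in R 4.3.3 was run on all tested genes (filtering by group, TMM scaling, robust quasi-likelihood test, Benjamini-Hochberg adjustment, group as the only term). DESeq2 1.42.0, limma 3.58.1 (voom with sample weights), other scalings and filters, the mouse as a block, and an offset for length and GC (splines of 4 degrees of freedom) were alternatives. The edgeR step was tested on simulated data without a length trend or pairing by mouse, so that test does not bear on these features. Changes were planted only in genes above 5 CPM on average, which Gas5, Snhg1 and Snhg8 were not. The SE printed for edgeR was derived from the estimate and its F statistic (estimate over root F).

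The labels give the mouse of each library, so libraries are paired across groups; deviations from group means correlated at −0.09, 0.73 and 0.60 in mice 1 to 3 over 13288 genes. The labels do not say how many cells each library held. RefSeq (GRCm38.p6) matched 99.72% of genes, and GENCODE M21 gave lengths for 99.12% (the longest coding transcript, or the longest basic one for noncoding genes).

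The members, lists and tests were chosen with earlier results of these data known. Genes named from a list were up to 3 with the largest change among those past the threshold, or the 2 most abundant where none passed, beside flanking genes and the 3 best-correlated genes per RNA; Nono, Nhp2, Nop10, Pih1d1, Snhg3, Zfas1, Snhg12, Snhg11, Rian, Miat, Meg3, Snap25 and Camk2a were named after their values were seen. The marker genes Krt19, Krt7, Cftr, Ly6g, Mmp8, Cd8a, Klrb1c and Ms4a1 were not analysed here. Some genes that the rule would name are not reported here.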

Additional observations from a re-analysis of the deposited data

How the results depend on the processing

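Counts of 588 higher and 493 lower genes became 1522 and 1298 with DESeq2, 1373 and 1104 with limma-voom, 1654 and 1486 with DESeq2 and the replicate block, 1421 and 1138 at an adjusted p under 0.1, and 0 and 0 with the length and GC offset, with or without the block. A strict filter (5 CPM in 3 libraries) gave 888 higher, and library totals alone gave 628 higher and 19 lower (97.1% of calls higher, against 54.4%), with the median gene at 0.14 in place of −0.01. Upper-quartile scaling gave 43.2% higher. Leaving out a library or mouse gave 0 to 937 higher and 0 to 713 lower, with calls in 1 of 9 cases. Leaving out the 3 libraries with Camk2a RNA, an alternative chosen after seeing the data, gave 0 and 0 (972 genes at an unadjusted p under 0.05).

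Malat1 kept its sign in 23 alternatives. It passed with totals (1.30), the strict filter (1.22), DESeq2 (1.12), limma-voom (1.39) and the looser threshold (1.15). It also passed with the replicate block in edgeR (1.16) and in DESeq2 (1.13). Leave-outs spanned 0.95 to 1.29, and Malat1 passed only in the one without TERT(High) of mouse 1. Snhg8 kept its sign in 22, passing with DESeq2 (−0.83), limma-voom (−0.91), DESeq2 with the block (−0.83) and the looser threshold (−0.81); leave-outs spanned −0.97 to −0.69. Gas5 turned with the length and GC offset (0.28, and 0.28 with the block). Neat1 turned when TERT(Low) of mouse 2 (0.20) or all of mouse 2 (0.50) was left out, over −1.39 to 0.50. Snhg1 turned when TERT(High) of mouse 2 (−0.36) or all of mouse 2 (−0.39) was left out, over −0.39 to 1.01. Without TERT(High) of mouse 1, Neat1 was −1.15 and Snhg1 0.99. The block changed no other call among the 5. Of 414 list counts recomputed in 23 alternatives, 250 stayed within 1.5 times.

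Snhg1 had 41 to 214 counts a library and a coefficient of biological variation of 57.1%, against 23.3% to 26.4% for Malat1, Gas5 and Snhg8 and 49.7% for Neat1.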

Other observations

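The 7 long noncoding RNA genes that passed the edgeR test were none of the 5 described above. C130083M11Rik rose from 0.0825 ± 0.0218 to 0.666 ± 0.0748 CPM (log2 2.98, SE 0.49, adjusted p = 0.0277), and B430010I23Rik rose from 0.575 ± 0.227 to 3.36 ± 1.19 CPM (2.53, SE 0.43, adjusted p = 0.0287; SD, n = 3 in each group). The most abundant of the 5 that fell was 4930506C21Rik, at 71.0, 70.2 and 81.2 CPM in TERT(High) and 101, 144 and 144 CPM in TERT(Low) of mice 1 to 3 (log2 −0.80, SE 0.18, adjusted p = 0.0475). Gm16861 fell by 1.07 (adjusted p = 0.0423), Gm4013 by 0.84 (adjusted p = 0.0498), Gm45928 by 0.83 (adjusted p = 0.0492) and A230072C01Rik by 0.77 (adjusted p = 0.0435) on the log2 scale. Of these 7, Gm4013 and A230072C01Rik no longer passed with the mouse as a block in edgeR (adjusted p = 0.0648 and 0.0519).

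In the 3 libraries with Camk2a RNA, the myelin gene Mbp stood at 8.51 CPM (TERT(High) of mouse 3), 19.7 CPM (TERT(Low) of mouse 1) and 8.48 CPM (TERT(Low) of mouse 3), against 0.182 to 0.996 CPM elsewhere. The receptor genes Gria2 and Grin1 were also highest in these 3 libraries. These genes were picked by their correlation with Meg3 over the 6 libraries, and the source of this RNA was not tested.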
